A study of Mus musculus with 5 samples.

Results

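The Notch pathway was followed here through 10 genes chosen by name. They are the receptors Notch1, Notch2 and Notch3, the ligands Jag1, Jag2 and Dll1, the target genes Hes1 and Hey1, the glycosyltransferase gene Lfng and Rbpj, which encodes the DNA-binding partner of the cleaved receptor. All 10 were found by symbol in the gene lists, which held 31053 genes in 4 libraries and 32285 in the 11-day library. Levels, shares of barcodes with at least 1 unique molecular identifier (UMI) and co-detection were measured in barcodes whose UMIs were at least 1% Malat1, a transcript retained in the nucleus.

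Notch receptors sit in the membrane and are activated by ligands of the Jagged and Delta families on a neighbouring cell. Binding is followed by cleavage by an ADAM protease and by γ-secretase, and the freed intracellular part enters the nucleus, where it joins RBPJ and Mastermind proteins at target genes such as Hes1. In layered and ductal epithelia the pathway is known for its part in holding progenitor cells and in the choice between cell fates.

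Libraries came from organoids of the mouse salivary gland (mSGOs), grown from dissociated submandibular gland cells embedded in Matrigel, and from the gland itself. There was 1 library per group. The 7-day control was not irradiated, the photon group received 7 Gy of photons on day 5 and the proton group 7 Gy of protons (plateau) on day 5, all from C57BL/6 mice aged 8 to 12 weeks and collected on day 7. The 11-day control was not irradiated and also came from C57BL/6 mice, but from a different batch processed in its own run, so culture age and batch cannot be told apart. Fresh tissue was the untreated gland of C57BL/6 mice aged 8 to 12 weeks. Organoids are described as derived from 4 animals, whose cells cannot be separated in these data, and the study used only females. Each library was made from 45000 sorted cells that excluded propidium iodide, which removes cells with open membranes.

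With no replicate, no difference could be tested and no p-value is given. The 95% intervals cover counting error only. Levels are UMI counts summed over barcodes and divided by the library's total (CPM, counts per 1e+06 UMIs). Each molecule is counted once at its 3′ end, so levels were compared between libraries for 1 gene at a time. A gene was called past the fold when the log2 ratio of its CPM (pseudocount 1 CPM) was at least 0.5 in size, the counting interval left out 0 and the 2 libraries together held at least 50 UMIs.

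The deposited matrices held between 7151 and 19189 barcodes and between 16908611 and 40166701 UMIs. After filtering, barcodes at or above the 1% Malat1 minimum were 1037 of 6494 in the control, 1568 of 15610 in the photon, 1372 of 15325 in the proton, 9369 of 9484 in the 11-day and 158 of 1402 in the tissue library. Their median depth was 5841, 4406.5, 5345, 3024 and 4171.5 UMIs in the same order. Between 0.948% and 3.16% of these barcodes of a library carried a barcode sequence that also occurred in another library. The organoid barcodes were epithelial, with Epcam in 78.3% to 93.1% of them and Krt14, a basal keratin, in 85.6% to 99.8%. Ptprc, which marks all immune cells, was at 0 in the 4 organoid libraries, as were all 4 pericyte markers in the 7-day libraries. In the tissue library only 22.8% of barcodes had Epcam, and 6 of 6 endothelial and 6 of 6 macrophage markers were present at a summed 2232 and 4050 CPM. The tissue values therefore come from few barcodes of mixed cell types.

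**Figure D1:**
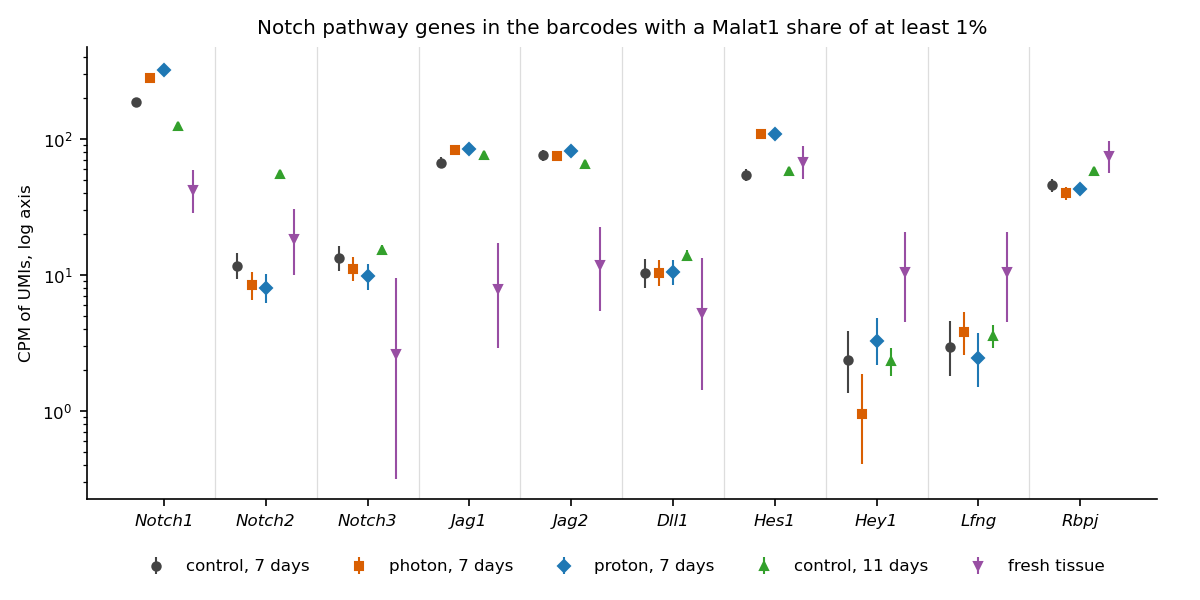
Level of each gene in CPM on a log axis, with 95% Poisson intervals for counting error, in the 5 libraries. Notch1 and Hes1 are higher in both irradiated libraries than in the 7-day control, Notch2 is highest in the 11-day library, and the tissue values have wide intervals because they rest on 2 to 57 UMIs.

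Notch1, the receptor with the widest known role in epithelia, had 188 CPM (178 to 199) in control mSGOs, 279.8 (269 to 291) in the photon library and 323 (311 to 336) in the proton library. It stood at 125 CPM (121 to 129) in 11-day mSGOs and at 41.8 CPM (28.6 to 59.0) in tissue. No neighbouring pair in this order of levels had overlapping intervals. Notch1 UMIs were seen in 56.8% of control barcodes, 63.9% of photon, 70.4% of proton, 30.4% of 11-day and 14.6% of tissue barcodes. Depth differed between libraries, and with every barcode of at least 1000 UMIs thinned to 1000 the shares were 20.5%, 29.4%, 31.0%, 11.4% and 8.92%. The shallower barcodes, 38, 69, 31, 135 and 1 in the same order, were left out of the thinned shares. The thinned shares of the photon (27.1% to 31.8%) and proton (28.6% to 33.6%) libraries overlapped in their intervals, and both lay above that of the control (18.1% to 23.2%).

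Notch1 lies on chromosome 2 at 26457902 to 26503822 of GRCm38.p6 (RefSeq). Its promoter is shown because Notch1 and Hes1 were the genes past the fold in the pooled sums after both photons and protons. A link between them was not tested. HES1 is a repressor known to bind N-box letters (CACNAG), and these letters are in capitals in the window from 250 bases before to 30 bases after the annotated start, on the minus strand (chr2:26503793-26504072):
Notch1: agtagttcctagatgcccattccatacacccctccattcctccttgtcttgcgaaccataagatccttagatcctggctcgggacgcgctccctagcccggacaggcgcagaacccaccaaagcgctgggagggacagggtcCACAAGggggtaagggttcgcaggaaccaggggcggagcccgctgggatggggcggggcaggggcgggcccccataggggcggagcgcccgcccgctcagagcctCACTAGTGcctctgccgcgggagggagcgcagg
N-boxes began 108 bases and 3 bases before the start on the gene's strand and 1 base before it on the opposite strand, the last pair overlapping.

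Notch2 and Notch3 are paralogous receptors with the same mode of activation. Notch2 (chromosome 3, 98013538 to 98150367) had 11.7 CPM (9.24 to 14.6) without irradiation, 8.37 (6.54 to 10.6) with photons and 8.03 (6.21 to 10.2) with protons. It reached 54.8 CPM (52.3 to 57.5) in 11-day mSGOs, above all other libraries, and 18.3 CPM (10.0 to 30.7) in tissue. The intervals of the 4 libraries below the 11-day one overlapped from each to the next.

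Notch3 (chromosome 17, 32120820 to 32166896), a receptor best known from vascular smooth muscle, had 13.3 CPM in control, 11.1 CPM in photon, 9.73 CPM in proton and 15.2 CPM in 11-day mSGOs and 2.61 CPM in tissue, where it rested on 2 UMIs. Every neighbour in its order of levels overlapped the next. The pericyte and smooth muscle list summed to 0 UMIs in the 7-day libraries and to 4 in the 11-day library. The endothelial list had 94, 130, 102 and 241 UMIs in the control, photon, proton and 11-day libraries, with Cdh5 and Cldn5 at 0, and its part in the Notch3 level was not tested.

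Jag1 and Jag2 encode the Jagged ligands. Jag1 (chromosome 2, 137081451 to 137116520) had 67.1 CPM (61.1 to 73.6) in the control library, against 83.7 (77.6 to 90.1) with photons and 84.4 (78.2 to 90.9) with protons. It was at 76.5 CPM (73.5 to 79.6) in 11-day mSGOs and at 7.84 CPM (2.88 to 17.1) in tissue, where it had 6 UMIs. The irradiated libraries lay above the control beyond counting error, and the 11-day interval overlapped those of the photon, proton and control libraries.

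Jag2 (chromosome 12, 112907803 to 112929812) was level across the 7-day libraries, with 75.7 CPM (69.3 to 82.5) for the control, 75.4 (69.7 to 81.5) for photons and 81.7 (75.7 to 88.1) for protons. It was at 65.8 CPM (63.0 to 68.7) at 11 days and 11.8 CPM (5.37 to 22.3) in tissue. Dll1 (chromosome 17, 15367354 to 15376932), a Delta ligand, had 10.3, 10.4 and 10.5 CPM in the control, photon and proton libraries, 13.8 CPM at 11 days and 5.22 CPM in tissue, with every neighbour overlapping the next.

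Hes1 (chromosome 16, 30065357 to 30067796), a repressor gene and the most widely used readout of Notch activity, had 54.4 CPM (49.0 to 60.2) in control mSGOs and 109 CPM in both irradiated libraries (103 to 117 after photons and 102 to 117 after protons). It was at 58.0 CPM (55.4 to 60.7) in 11-day mSGOs and 67.9 CPM (50.7 to 89.0) in tissue. The 2 irradiated libraries stood above the other 3, which overlapped one another from each to the next. Hes1 UMIs were seen in 22.2% of barcodes in the control and 33.6% in either irradiated library. After thinning to 1000 UMIs these shares were 5.01% (3.74% to 6.55%), 9.21% (7.79% to 10.8%) and 8.72% (7.27% to 10.4%), so both irradiated shares remained above the control interval.

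Hey1 (chromosome 3, 8663359 to 8667038), the other target, was near the limit of detection, with 16, 8, 27, 73 and 8 UMIs in the control, photon, proton, 11-day and tissue libraries. Its levels were 2.36, 0.943, 3.28, 2.30 and 10.4 CPM, and neighbours in that order of levels overlapped. The photon interval (0.407 to 1.86) and the proton interval (2.16 to 4.78) did not overlap, on 8 and 27 UMIs.

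Rbpj (chromosome 5, 53555779 to 53657445) had 45.5 CPM (40.6 to 50.9) in control mSGOs, 39.8 (35.7 to 44.3) with photons and 43.1 (38.7 to 47.8) with protons. It was at 58.5 CPM (55.9 to 61.3) at 11 days and 74.4 CPM (56.4 to 96.4) in tissue. The intervals of the 7-day libraries overlapped, and both other libraries lay above them.

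Lfng encodes Lunatic fringe, which adds a sugar to Notch receptors and so changes their response to Jagged and Delta ligands. It lies on chromosome 5 at 140607341 to 140615545 and had 2.96, 3.77, 2.43, 3.53 and 10.4 CPM in the control, photon, proton, 11-day and tissue libraries, each neighbour overlapping the next. Its promoter is shown beside that of Notch1 because it alone of the 8 genes with a RefSeq promoter entry held GTGGGAA, an extended form of the RBPJ core TGGGAA. The core is in capitals on either strand in the same window on the plus strand (chr5:140607091-140607370):
Lfng: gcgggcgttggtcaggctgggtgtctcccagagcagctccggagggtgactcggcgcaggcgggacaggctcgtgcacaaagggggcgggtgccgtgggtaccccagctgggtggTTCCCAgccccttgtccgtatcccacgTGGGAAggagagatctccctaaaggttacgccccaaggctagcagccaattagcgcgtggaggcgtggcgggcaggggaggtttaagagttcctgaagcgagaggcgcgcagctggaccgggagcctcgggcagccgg
The cores began 135 bases before the start on the opposite strand and 108 bases before it on the gene's strand, where the match overlapped the E-box CACGTG. The window also held 1 N-box.

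Both strands of the 300-base RefSeq windows (GRCm38.p6) were searched, from 250 bases before to 50 after each start. In 32851 promoters, TGGGAA was present in 25.6%, GTGGGAA in 6.38%, CACGTG in 7.15% and CACNAG in 42.5%. Among the genes described here, Rbpj held 2 cores in the overlapping windows of its 2 start sites, 1 of them in both windows, Notch2 held 1 N-box, Notch3 held 2, and Dll1 held 1 at 1 of its 2 start sites. The windows of Jag1 and Jag2 held none of the letters searched. The matches describe sequence only.

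**Figure D2:**
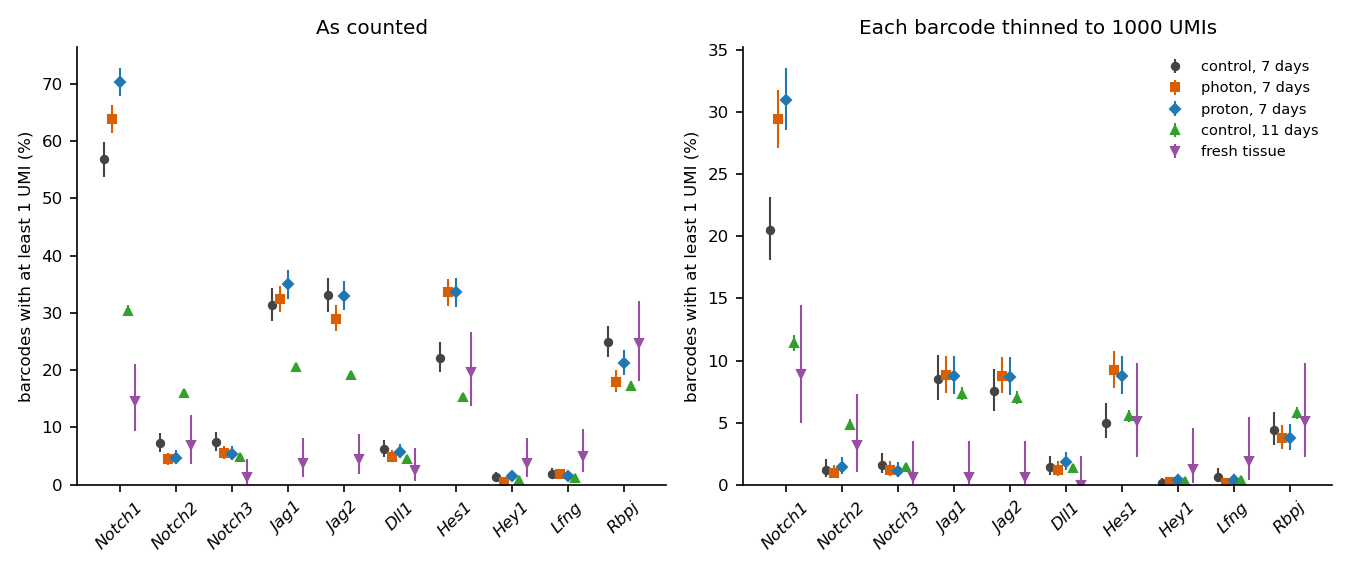
Share of barcodes with at least 1 UMI of each gene, as counted and after thinning to 1000 UMIs, with 95% Clopper-Pearson intervals. Barcodes under 1000 UMIs are left out of the thinned panel. The order of the libraries for Notch1 is the same in both panels, from 70.4% to 14.6% as counted and from 31.0% to 8.92% after thinning.

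The first comparison asked how the pathway genes differed 2 days after photons. Notch1 was 1.48-fold higher (log2 0.57, 0.47 to 0.67) and Hes1 1.99-fold higher (log2 1.00, 0.83 to 1.19) than in the control. Under 22 alternatives Notch1 was past the fold in 17, with a lowest ratio of 0.27, and Hes1 in 22. Of 9 members with enough UMIs these 2 were past the fold upwards and none downwards, against 6.67% of 9091 genes upwards and 3.26% downwards. Jag1 was higher by 0.31 (0.15 to 0.49) on the log2 scale, under the fold, and at -0.08 with no Malat1 minimum. Notch2 was at -0.44 (-0.96 to 0.00), Notch3 at -0.24 and Rbpj at -0.19, with intervals that held or touched 0, and of 22 alternatives Notch2 was past the fold downwards in 3 (to -1.02), Hey1 downwards in 2 and Dll1 upwards in 1 (0.95). The median log2 ratio was 0.00 over the 9 members and 0.06 over all genes.

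After protons the same 2 genes were past the fold. Notch1 was 1.71-fold higher (log2 0.78, 0.68 to 0.88) and Hes1 1.99-fold higher (log2 0.99, 0.83 to 1.18). Of 8 members with enough UMIs none was past the fold downwards, although of 22 alternatives Notch2 was in 5 (to -0.90), Notch3 in 2 and Dll1 in 1, and the background was 5.16% of 8960 genes upwards and 4.29% downwards. Jag1 was again higher under the fold (log2 0.33, 0.16 to 0.50), and at 0.01 with no Malat1 minimum. In tertiles of the Malat1 share its photon ratios were 0.21, 0.23 and 0.42, with intervals that held 0. Its proton ratios were 0.05, 0.32 and 0.37, with an interval above 0 in the middle tertile only. Notch2 stood at -0.49 (-1.03 to -0.05), just under the fold, and Notch3 at -0.41 (-0.90 to -0.00). Both comparisons use the same control library, so their likeness is not independent support.

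The irradiated libraries were also compared with each other, which does not use the control. None of 9 members was past the fold between protons and photons, against 1.39% of 9252 genes upwards and 3.25% downwards. Notch1 was slightly higher after protons in the pooled sums (log2 0.21, 0.13 to 0.29), and Hes1 differed by -0.00 (-0.14 to 0.13). In tertiles of the Malat1 share, from lowest to highest, the Notch1 ratio was 0.11 (-0.05 to 0.26), 0.27 (0.14 to 0.40) and -0.00 (-0.14 to 0.14). Only the interval of the middle tertile left out 0. Jag1 differed by 0.01 (-0.14 to 0.17) and Rbpj by 0.11 (-0.11 to 0.33). Hey1 was 1.14 higher on the log2 scale (0.62 to 3.15) on 35 UMIs in all, under the minimum of 50.

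**Figure D3:**
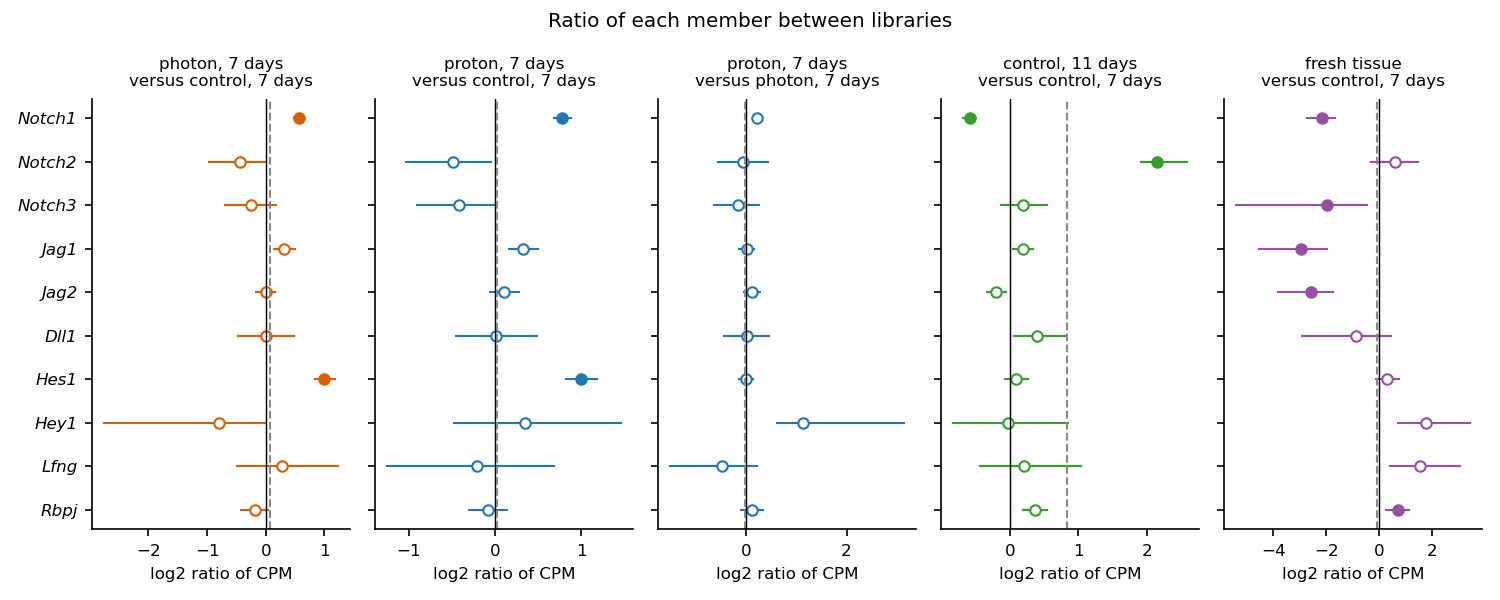
Log2 ratio of CPM for each gene in 5 comparisons, with 95% intervals for counting error. Filled points are past the fold, the solid line is 0 and the dashed line is the median of all genes tested, which lies at 0.83 for 11-day against 7-day mSGOs. Notch1 and Hes1 are the filled points in both comparisons of irradiated with control mSGOs.

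Other values moved with irradiation beside Notch1. The median Malat1 share of these barcodes rose from 4.83% in control mSGOs to 6.99% with photons and 7.59% with protons, and Notch1 was higher where that share was higher. In tertiles of the Malat1 share over the 7-day barcodes (bounds at 4.72% and 9.27%), control Notch1 was 157, 221 and 263 CPM, photon Notch1 217, 266 and 442 CPM, and proton Notch1 234, 321 and 442 CPM. Within tertiles the photon log2 ratio of Notch1 was 0.47, 0.27 and 0.74 and the proton ratio 0.57, 0.54 and 0.74, every one with an interval above 0. The photon call was lost in the lowest and middle tertile, and it was also lost without 2 shallow clusters (log2 0.48, 0.38 to 0.59), with no Malat1 minimum (0.37) and in barcodes with at least 2500 genes (0.47). The proton call held in each. The part of the Malat1 share in the pooled difference was otherwise not tested.

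Hes1 showed no such rise with the Malat1 share, at 46.9, 67.1 and 57.1 CPM from the lowest to the highest tertile of the control. In the same order it was 116, 108 and 99.2 CPM with photons and 126, 103 and 97.9 CPM with protons. Its photon ratios within tertiles were 1.28, 0.68 and 0.79 and its proton ratios 1.41, 0.61 and 0.77, all past the fold. Aqp5, a water channel gene of acinar cells, was at 34.4 CPM in the control against 8.13 and 7.05 CPM after photons and protons. Notch1 was highest in cluster 3 of the 7-day clusters described next, a shallow cluster that no cell type name was given to. Cluster 3 made up 14.8% of the control library's barcodes, 25.7% with photons and 21.0% with protons. The macrophage list rose from 16.8 CPM to 32.2 and 26.3 CPM with at most 2 of 6 markers detected and C1qa and C1qb at 0. Summed cycling markers were 412 CPM in the control against 225 and 235 CPM after photons and protons (10 of 10 detected in each), and summed myoepithelial markers 604 against 404 and 391 CPM (6, 5 and 7 of 9 detected). Their part in the pooled differences was not tested beyond the values by cluster given next.

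The merged 7-day barcodes were clustered without any Notch pathway gene, which gave 9 clusters, of which 8 held at least 20 barcodes of every library. Most were left unnamed because too few markers of any 1 cell type led them. Notch1 was higher than in the control in 8 of 8 clusters after photons and in 8 of 8 after protons, with an interval above 0 in 7 of 8 in both. The photon log2 ratios ran from 0.33 to 1.65 and the proton ratios from 0.46 to 1.48. In the cycling-like cluster (7) Notch1 rose from 226 CPM to 393 CPM (log2 0.80, 0.46 to 1.14) and 465 CPM (1.04, 0.71 to 1.39). In the cornifying squamous-like cluster (6), where Notch1 was lowest, it went from 19.3 CPM to 62.7 and 55.7 CPM on 11, 42 and 35 UMIs.

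Hes1 was also higher in 8 of 8 clusters after either beam, but unevenly, with an interval above 0 in 5 after photons and 6 after protons. Cluster 1 held nearly equal Hes1 in all 3 libraries, at 107 CPM in the control, 109.9 CPM after photons (log2 0.04, -0.31 to 0.41) and 108 CPM after protons (0.02, -0.33 to 0.37). Cluster 2 went from 52.4 CPM to 147 CPM (1.47, 1.15 to 1.83) and 124 CPM (1.22, 0.89 to 1.60). In the cycling-like cluster Hes1 went from 59.6 CPM to 139.9 CPM (1.22, 0.60 to 1.89) and 189 CPM (1.65, 1.05 to 2.31). The intervals of clusters 1 and 2 did not overlap for either beam, a difference between clusters that was seen after the values were known.

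The other genes were less even across clusters. Jag1 was higher in 5 of 8 clusters in each comparison, with an interval above 0 in 2 after photons and 3 after protons, among them cluster 3, where it went from 75.8 CPM to 143 and 151 CPM. Jag2 had no cluster with an interval apart from 0. Across the pooled 7-day clusters Jag2 ran from 14.5 CPM in the cornifying squamous-like cluster to 141 CPM in cluster 3, and Notch1 from 47.1 to 596 CPM between the same clusters. Cluster 3 was shallow, with a median of 1840.5 UMIs.

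**Figure D4:**
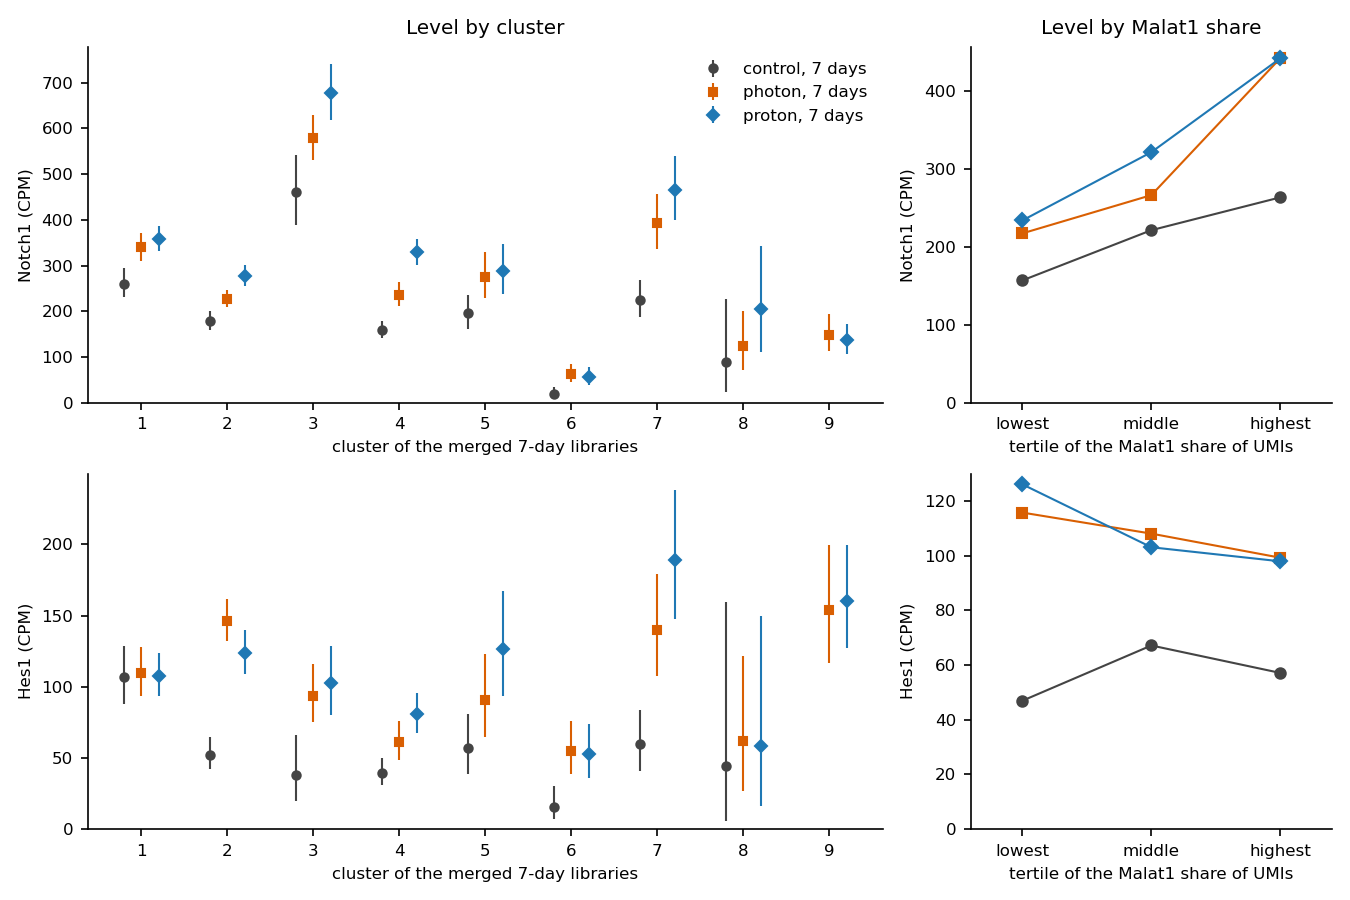
Notch1 (top) and Hes1 (bottom) in CPM by cluster of the merged 7-day libraries, with 95% Poisson intervals, and by tertile of the Malat1 share, in control, photon and proton barcodes. Points of cluster 9 are shown for the irradiated libraries only, since the control had fewer than 20 barcodes there. Hes1 lies at about the same level in all 3 libraries in cluster 1, and Notch1 climbs with the Malat1 share in every library.

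Barcodes under the 1% Malat1 minimum were far more numerous, with 5457, 14042 and 13953 in the control, photon and proton libraries. Notch1 was found in 15.3%, 15% and 15.3% of them, at 112, 140.1 and 148 CPM. Hes1 was found in 8.39%, 11.3% and 13.0%, at 57.6, 103 and 123 CPM. In CPM both genes were again higher in the irradiated libraries, while the share of barcodes with Notch1 was level. No organoid cell type known to lack these genes was on the marker lists, so the share from free RNA alone was not measured. The lowest cluster, the cornifying squamous-like one, had Notch1 in 15.4% and Hes1 in 13.8% of its 65 control barcodes, at a median of 7818 UMIs.

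The counts for the other 56 pathway genes are to be read against all genes, for which the shares past the fold were 6.67% upwards and 3.26% downwards after photons and 5.16% and 4.29% after protons. Of 39 with enough UMIs after photons, 2 were past the fold upwards, Kat2a (log2 0.75), which encodes an acetyltransferase coactivator, and Dtx3l (0.67), a Deltex-family ubiquitin ligase gene. Downwards were Rfng (-0.81), which encodes another fringe glycosyltransferase, and Dtx2 (-0.62). After protons, of 38 genes, Myc was higher (71.4 against 104 CPM, log2 0.54) and Hdac1, a histone deacetylase gene, lower (-0.78). All but Myc rested on 53 to 117 UMIs in both libraries together. Between protons and photons Dtx2 was higher (0.56) and Kat2a lower (-0.60) of 39 genes, where the background was 1.39% and 3.25%. Nrarp, a feedback inhibitor that is itself a Notch target, was at 57.6, 63.2 and 75 CPM in the control, photon and proton libraries, under the fold.

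Untreated mSGOs of 11 and 7 days were compared over the 30406 genes in both lists. The median log2 ratio of all 12000 genes tested was 0.83, and 0.35 under median-of-ratios scaling. The ratios of Notch2 and Notch1 are therefore also given relative to the median of 0.83. Notch2 was 4.42-fold higher at 11 days (log2 2.15, 1.91 to 2.58, or 1.31 relative to the median) and Notch1 1.5-fold lower (log2 -0.58, -0.68 to -0.50, or -1.41 relative). These were 1 member of 10 past the fold upwards and 1 downwards, against a background of 62.7% and 9.8% of genes. The other 8 members lay between -0.19 (Jag2) and 0.39 (Dll1), all below the median of all genes. Under median-of-ratios scaling Jag1 (-0.35), Hes1 (-0.44), Notch3 (-0.32), Lfng (-0.22), Rbpj (-0.17) and Dll1 (-0.11) changed sign and Jag2 stood at -0.73, so no direction is given for them. Notch2 (1.62) and Notch1 (-1.13) kept theirs, but Notch1 was under the fold with no Malat1 minimum (-0.21) and in barcodes with at least 2500 genes (-0.33).

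The 11-day ratio moved with the genomic span of a gene. Median log2 ratios rose over quartiles of span from 0.40 to 0.60, 0.87 and 1.60, where the photon comparison gave 0.04 to 0.09. Notch2 spans 136830 bases and lay 0.54 above the median of its quartile, at the 68.7th percentile. Notch1, with 45921 bases, lay 1.45 below the median of its own quartile, and Rbpj, with 101667 bases, 1.24 below. The headers of the 11-day matrix name another software version (7.0.0) than those of the other libraries (3.0.1). Whether intronic reads were counted is not given in the sources used here, and its part in these ratios was not tested. The Malat1 level was 51413 CPM in the 7-day and 32722 CPM in the 11-day library.

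Of 44 other pathway genes with enough UMIs, 31 were past the fold upwards and 3 downwards at 11 days, with a median of 1.16. These shares are near the 62.7% upwards and 9.8% downwards of all genes and are no result about the pathway. The coactivator genes Maml2 (3.40 to 228 CPM, log2 5.70) and Maml3 (22.0 to 215 CPM, 3.23) and Numb (14.1 to 64.6 CPM, 2.12), an inhibitor of Notch, were among the higher. Among the higher were also the coactivator genes Kat2a, Kat2b, Ep300, Snw1 and Maml1 and the cleavage genes Adam10, Adam17, Furin, Psen2, Ncstn and Aph1b, where the median of all genes was 0.83. Further genes past the fold upwards included Dlk1, Pofut1, Poglut1, Mib1, Mib2, Hdac1, Ctbp1, Tle1, Kdm5a, Myc, Itch, Fbxw7, Dtx3, Dtx3l and Dtx4. The 3 lower genes were Nrarp (57.7 to 5.65 CPM, log2 -3.14), Hes6 (35.5 to 17.6 CPM, -0.97) and Dlk2 (25.6 to 10.3 CPM, -1.24), a non-canonical ligand gene. Batch, age and software version differ between these libraries and cannot be told apart.

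Within 11-day mSGOs, 11 clusters were formed, also without Notch pathway genes. Notch2 was even across them, from 42.7 to 66.4 CPM in 10 of 11, with 164 CPM in cluster 10, a shallow cluster of 105 barcodes with a median of 761 UMIs. Notch3 varied more, from 3.96 CPM in cluster 1 to 26.5 CPM in cluster 3, and was 23.3 CPM in the striated or granular duct-like cluster (4). Jag2 was lowest in cluster 5 at 12.3 CPM, and in the striated or granular duct-like cluster it was 35.6 CPM against a median of 78.8 CPM. Jag1 was 136 CPM in the myoepithelial-like cluster (9), where Notch1 was lowest at 82.2 CPM.

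**Figure D5:**
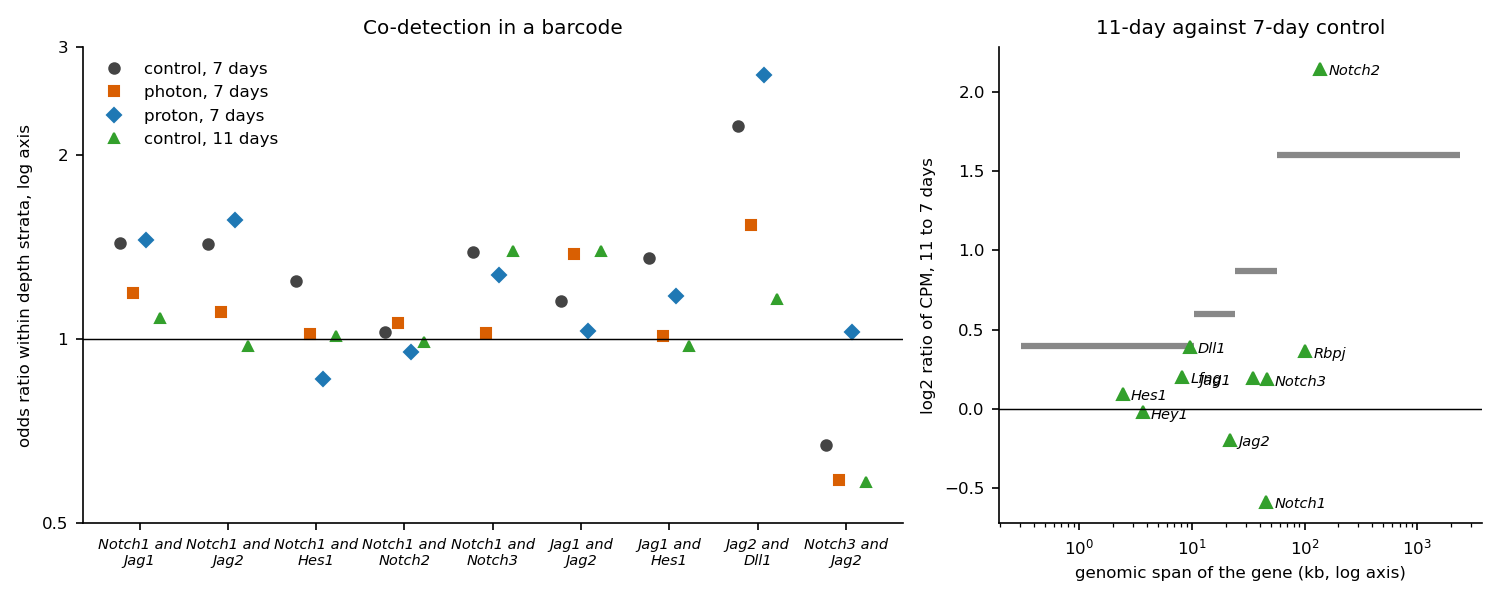
Left, odds ratio of finding both genes of a pair in a barcode, computed within depth strata, on a log axis in 4 libraries, where 1 is no tendency. Right, log2 ratio of 11-day to 7-day control for each gene against its genomic span in kilobases on a log axis, with grey bars for the median of all genes in each quartile of span. Of the pairs shown, Jag2 with Dll1 has the highest odds ratio in the 7-day libraries (2.23, 1.54 and 2.70), and Notch2 lies above and Notch1 below the median for their span.

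In fresh tissue Notch1, Notch3, Jag1 and Jag2 were lower than in 7-day mSGOs, on few UMIs, while Notch2 stood at 0.61 (-0.29 to 1.48) and Dll1 at -0.87 (-2.90 to 0.43) on the log2 scale. Notch1 was 4.42-fold lower (log2 -2.14, -2.72 to -1.67), Jag1 stood at -2.95 (-4.55 to -1.96) and Jag2 at -2.59 (-3.82 to -1.75). Notch3 stood at -1.99 (-5.42 to -0.45) on 2 tissue UMIs. Rbpj was 1.62-fold higher (log2 0.70, 0.28 to 1.12) and the Hes1 interval held 0 (0.32, -0.13 to 0.74). With no Malat1 minimum Hes1 turned to -1.51 and Notch2 to -0.86, both past the fold, and with a Malat1 minimum of 2% Hes1 was past it upwards (0.60). Of 8 members with enough UMIs, 4 were past the fold downwards and 1 upwards, against 28.7% and 24.7% of 7852 genes. The tissue library was much smaller, so the UMI minimum was met mainly through the control (Notch3, Jag1 and Jag2 had 2, 6 and 9 tissue UMIs), and nothing is read from this count. Of 18 alternatives, Notch3 kept its call in 13 and Rbpj in 10, Jag1 in 17, and Notch1 and Jag2 in 18. Hey1 (log2 1.77) and Lfng (1.53) had 8 tissue UMIs each, under the minimum.

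The tissue signal was spread over different cells. In cluster 3, an unnamed cluster with 6 of 6 macrophage, 8 of 10 cycling and 3 of 3 erythroid markers, Rbpj had 40 of its 57 UMIs (151 CPM, 108 to 206) and was found in 64.1% of 39 barcodes, against 10.9% of 46 barcodes in cluster 1, a mixed cluster with 9 of 10 pro-acinar and 8 of 8 striated or granular duct markers (median depths 6770 and 2733 UMIs). Without the Malat1 minimum, which adds 1244 barcodes, the Rbpj ratio turned to -1.16. Notch1 had 15 UMIs (146 CPM, 82.0 to 242) in the endothelial-like cluster (4) and 10 in cluster 2, which held 5 of 6 endothelial markers, but 2 in cluster 1 (8.06 CPM, 0.976 to 29.1). Hes1 was highest in the endothelial-like cluster too, at 205 CPM (127 to 313) on 21 UMIs. The share with Notch1 was 28.0% there, 4.35% in cluster 1 and 7.69% in cluster 3. Cell type makeup and expression per cell therefore cannot be told apart in the tissue sums.

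Of 32 other pathway genes in tissue, 10 were past the fold upwards and 8 downwards, near the background of 24.7% and 28.7%. From the list of other targets and target-like genes, 4 met the UMI minimum, mostly through the control, so nothing is read from their shared direction. They were Nrarp (57.6 to 10.4 CPM), Hes6 (35.5 to 7.84 CPM), Myc (71.4 to 6.53 CPM) and Ccnd1 (344 to 214 CPM). Higher were the sheddase gene Adam17 (14.8 to 40.5 CPM), Ctbp1 (20.0 to 60.1 CPM), a corepressor gene, and Numb (14 to 31.3 CPM), and also Poglut1, Adam10, Ep300, Kat2b, Hdac1 and Itch. Dlk2, Furin, Snw1 and Cir1 were the other lower genes. Dll4 and Notch4, which are known from endothelium, had 12 and 10 UMIs in tissue and at most 1 and 4 in any 7-day library.

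Co-detection was described for the 45 pairs, with odds ratios computed within 5 strata of depth since deeper barcodes hold more of every gene. Pairs with an expected overlap of at least 20 barcodes numbered 22, 24, 22 and 33 in the control, photon, proton and 11-day libraries and 0 in tissue. Their median odds ratio was 1.07, 1.02, 1.16 and 1.01. Among those pairs, Jag2 and Dll1 had the highest odds ratio in the 7-day libraries, at 2.23, 1.54 and 2.70 in the control, photon and proton libraries, and 1.16 at 11 days. Thinning to 2000 UMIs left 864, 1184 and 1141 barcodes of the 7-day libraries, since shallower ones were dropped. The values were then 2.02, 1.12 and 1.56, on 5, 4 and 5 barcodes with both. In the control 9.91% (6.96% to 13.6%) of barcodes with Jag2 had Dll1, against 4.32% (2.94% to 6.11%) of those without.

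Notch1 was set against each ligand in the same way. The odds ratio of Notch1 with Jag1 was 1.43, 1.19, 1.45 and 1.08 in the control, photon, proton and 11-day libraries, and with Jag2 1.43, 1.11, 1.56 and 0.97. With Dll1 it was 1.09, 0.77, 1.31 and 1.03. After thinning to 2000 UMIs, which also leaves out shallower barcodes, Notch1 with Jag2 gave 0.97 in the control, on 34 barcodes with both. Notch1 with Dll1 gave 0.84 in the proton library, on 10 barcodes with both. The side of 1 is therefore not settled for these pairs. Barcodes with a receptor and a ligand together made up 36.5%, 36.7%, 44.5%, 16.7% and 3.8% of barcodes in the 5 libraries from control to tissue. Notch1 with Hes1 gave 1.24, 1.02, 0.86 and 1.01, and Notch1 with Notch2 1.03, 1.06, 0.95 and 0.99. Jag1 with Jag2 gave 1.15, 1.38, 1.03 and 1.39, and 0.63, 1.4, 0.98 and 1.4 after the same thinning. Notch3 with Jag2 gave 0.67, 0.59, 1.03 and 0.58. In the control 31.2% (21.1% to 42.7%) of barcodes with Notch3 had Jag2, against 33.2% of those without, so the difference lay within counting error there. In 11-day mSGOs the shares were 13.6% (10.6% to 17.2%) and 19.4% (18.6% to 20.2%), which did not overlap. Pairs with Hey1 or Lfng were mostly too rare to describe, and in such sparse counts an odds ratio near 1 carries little.

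Likeness of pattern was measured as the Pearson correlation of log2(CPM + 10) over 18 clusters, 7 of the control and 11 of the 11-day library, among 3273 genes. The clusters share library, batch and depth, so these values only describe. The genes most like Notch1 were Fxr1 (0.86), Plod2 (0.86), Alkbh1 (0.83), Tma16 (0.82) and Gnl3 (0.82), whereas Jag2 stood at rank 67 (0.61), Hes1 at 133 (0.51), Jag1 at 402 (0.34) and Rbpj at 1074 (0.12). For Jag1 they were Trp63 (0.83), which encodes the basal epithelial factor p63, Timm9 (0.80), Ptgs2 (0.80), Mob2 (0.80) and Luzp1 (0.78). For Hes1 they were Thap3 (0.84), Mbd1 (0.83), Pip4p2 (0.76), Ppp2r2d (0.74) and Bcl2l1 (0.71).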

How the data were processed

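Single-cell RNA-seq matrices of 5 libraries, 1 per group as the sample labels give them, were analysed. The authors deposited raw UMI counts per gene and barcode, not normalized, with a minimum of 500 UMIs per barcode. The submitters' processing notes name Cell Ranger 5 and mm10, the matrix headers name software versions 3.0.1 (4 libraries) and 7.0.0 (11-day), and the study's methods name another mouse assembly, so the build of the counts is not settled here. Positions and promoters come from RefSeq GRCm38.p6, matched by symbol (10 of 10 genes with a position, 8 with a promoter).

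Barcodes with at least 200 genes and at most 5% mitochondrial UMIs were kept. The automatic doublet threshold of Scrublet marked 0% to 10.1% of barcodes, so in every library the highest scores were removed up to 0.8% per 1000 barcodes, which was 1.13% to 14.6%. Results use barcodes with at least 1% Malat1. Levels have exact Poisson intervals, shares Clopper-Pearson intervals and ratios exact conditional binomial intervals, all at 95% and of the ratio without the pseudocount. They cover counting error only, and barcodes are not replicates. Clusters used 2000 variable genes, 30 components, 15 neighbours and Leiden resolution 0.8, with Notch pathway genes left out. A cluster was named when at least 3 markers of 1 cell type were 2-fold higher in it and at least 1 of them was among its 10 leading genes. Clusters with at least 3 such markers from each of 3 or more cell types stayed unnamed. Median depth ran from 3024 to 5841 UMIs.

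All 10 genes are named in every library, other pathway genes where past the fold (some are not reported here), and the 5 genes most like Notch1, Jag1 and Hes1. The genes, lists and alternatives were chosen with earlier results of these data known. Of the statistics, only the log2 ratio, its interval and the fold call were tested on simulated data. Those counts held counting error and no variation between libraries. Alternatives covered the Malat1 minimum, gene and mitochondrial limits, doublets, shared barcodes, thinning, scaling, pseudocount, UMI minimum, barcode weight, depth strata and resolution. Tools were scanpy 1.11.5, leidenalg 0.10.2, numpy 2.4.6, scipy 1.17.1, pandas 2.3.3 and matplotlib 3.10.9.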

Additional observations from a re-analysis of the deposited data

How the results depend on the processing

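No paired analysis was possible because each group has 1 library and every library carries the same replicate number. After protons the number of genes past the fold stayed between 2 and 3 in 22 of 22 alternatives, the added calls being downward, and Hes1 was past it in 22 of 22 for both beams. After photons the count went from 2 to 1 in the lowest Malat1 tertile (1), in the middle tertile (1) and without the shallow clusters (1), since Notch1 dropped under the fold. Its highest value was 3. Notch1 was also under the fold with no Malat1 minimum, where Notch2 and Hey1 were called lower, and with at least 2500 genes, where Dll1 was called higher, so the count does not show these losses. Between protons and photons the count went from 0 to 1 with the mitochondrial limit at 10% (1) or 20% (1), with no UMI minimum (1) and in the middle (1) and highest (1) tertile. The call in the middle tertile was Dll1 lower (-0.73) and in the highest tertile Dll1 higher (0.86), the same gene in opposite directions. At 11 days it went from 2 to 6 in barcodes with at least 2500 genes. In tissue it went from 5 to 8 with no Malat1 minimum, to 2 with at least 2500 genes, to 3 when thinned to 1000 UMIs and to 3 when thinned to 2000 UMIs, and the Rbpj log2 ratio reversed to -1.16 with no Malat1 minimum. The cause was not tested. The tertiles and the removal of shallow clusters were chosen after seeing the data. Of the log2 ratios under alternatives, 887 stayed within the counting interval of the reported value and 132 left it, and Rbpj in tissue was the 1 ratio past the fold that turned sign. Ratios under the fold, often near 0, changed sign more often. Few UMIs limit Hey1 and Lfng, and the tissue values rest on 158 barcodes.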

Other observations

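In the barcodes under the Malat1 minimum, Jag1 was at 80.3 CPM in the control, 63.7 CPM after photons and 70.5 CPM after protons, so the irradiated libraries lay below the control here and above it in the barcodes over the minimum. Jag2 was at 50.6, 41.2 and 44.1 CPM and Notch2 at 16.2, 5.57 and 6.76 CPM in the same libraries. Rbpj was at 24.7, 37.1 and 38.0 CPM. In tissue the 1244 such barcodes held Notch1 at 3.10 CPM, Hes1 at 11.8 CPM and Rbpj at 5.61 CPM. Hes5 and Hey2, further target genes of the pathway, had 0 UMIs in all 5 libraries among barcodes above the minimum.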
